A study of Homo sapiens with 6 samples.

Results

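The kinesin genes other than the mitotic set around KIF11 were examined in HepG2, an established human hepatoma line. Gene symbols that begin with KIF or KIFC and a number were taken from the deposited table, and KIF11, KIF15, KIF20A, KIF23, KIF18A, KIF2C, KIF4A, KIFC1 and KIF14 were left out, which kept 34 of 43 such genes and 34 of the 20030 genes in the table. 33 of the 34 encode kinesin motors, while KIF1BP carries the name but encodes a protein that binds kinesins and is no motor itself. The study compared HepG2 cells that received a lentivirus with a control shRNA (sh-ctrl, 3 libraries) with HepG2 cells that received a lentivirus with an shRNA against KIF11 (sh-KIF11, 3 libraries). Both shRNAs were carried in the pLKO.1 vector, and the libraries hold poly(A) RNA read with strand-marking chemistry. Nothing in the labels says that the 3 libraries of a group came from separate cultures, so the p-values measure only the spread between these libraries. The study's oligo list gives 1 hairpin against KIF11.

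Kinesins are motor proteins that use ATP to move along microtubules, mostly toward the plus end, or that shorten microtubules from their ends. Kinesin-1 (the KIF5 heavy chains) and kinesin-3 haul vesicles, organelles and mitochondria, kinesin-2 (KIF3A, KIF3B, KIF3C and KIF17) also drives transport inside cilia, and KIF7 of the kinesin-4 family shapes Hedgehog signalling at the tip of the cilium. Several further families contain motors of cell division and regulators of microtubule length, and kinesin-14 motors move toward the minus end. In hepatocyte-like cells, kinesins are known mainly for carrying endosomes, lysosomes and secretory vesicles.

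Library totals ran from 18167773 to 19583282 counts, so 3 counts were worth 0.145 to 0.178 CPM (depth-scaled counts, adjusted here by TMM factors). The targeted gene KIF11, the plus-end motor of the bipolar spindle, had 116 ± 5.01 CPM in sh-ctrl and 68.8 ± 5.16 CPM in sh-KIF11 (SD, n = 3 each). The log2 fold change was -0.75, without overlap between the groups (exact permutation test, two-sided, p = 0.1, which is the smallest value that 3 against 3 libraries allow). Of the 6 hepatoma markers (ALB, AFP, APOA1, APOB, TTR and SERPINA1), all were present in every library, and their summed FPKM was between 6660 and 7220 in sh-ctrl and between 2860 and 3080 in sh-KIF11. The fall of the sum came from ALB, AFP, APOA1 and SERPINA1, while TTR was at 22.9 to 30.8 FPKM in sh-ctrl and 23.6 to 31 FPKM in sh-KIF11 and APOB at 438 to 512 and 396 to 439 FPKM. Of 13 markers of endothelial cells, leukocytes, fibroblasts and neurons, 8 had at most 10 counts in any library. Summed over the 13, these markers reached 24.6 to 27.2 FPKM in sh-ctrl and 15.5 to 16.9 FPKM in sh-KIF11, mostly from CD68. The endothelial marker VWF was at 0.0864 to 0.126 FPKM in sh-ctrl and 0.219 to 0.319 FPKM in sh-KIF11, and PECAM1 at 0.123 to 0.175 and 0.11 to 0.202. In the same order, the fibroblast marker PDGFRB was at 0.178 to 0.304 and 0.113 to 0.157 FPKM. The neuronal marker SYN1 was at 0.624 to 1.06 and 0.954 to 1.16 FPKM. The part of these marker shifts in the kinesin results was not tested. In bulk RNA, a change in the share of cells that express a gene and a change in RNA per cell cannot be told apart.

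To see whether the hairpin itself could pair with other kinesin mRNAs, its 21-base target was compared with every GENCODE release 29 transcript (GRCh38) of the 34 genes. The target lies in the coding sequence of KIF11, at bases 197 to 217 of its first listed transcript. The closest stretch in 1 gene, KIF1B, had 5 mismatches, the next, in the coding sequence of KIF7, had 6, and the remaining genes had between 7 and 10. The target and the KIF7 stretch at bases 3237 to 3257 are shown 5′ to 3′, with mismatched bases of KIF7 in capitals.
KIF11 target of the shRNA: gcgcccattcaatagtagaat
KIF7 closest stretch: gcTGccattGaGtaTAagaat
Whether the hairpin acts on any of these mRNAs was not tested.

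Of the 34 genes, 27 had enough counts to be tested and 7 did not. Among the 27, 14 were higher and 4 lower in sh-KIF11 (edgeR's quasi-likelihood test, Benjamini-Hochberg adjusted p under 0.05), and 9 were not called. The call itself was common in this experiment, since 69.1% of all 12369 tested genes passed against 66.7% of the kinesin genes. The directions were uneven, with 51.9% of the kinesin genes higher against 34.4% of all tested genes, and 14.8% lower against 34.7%. The median log2 fold change was 0.25 over the kinesin genes, with quartiles of 0.02 and 0.49, and 0.00 over all tested genes, with quartiles of -0.31 and 0.36. KIF5C passed the count filter only through sh-KIF11, where it was high, and among the 26 other tested genes 13 were higher and the median was 0.21. The libraries of both groups did not overlap in CPM for 19 of the 27 genes (70.4%), against 71.2% of all tested genes. Of the 19, 15 lay above the sh-ctrl libraries, KIF5C among them, and 4 below. These directions were not counted over all tested genes. The split of the calls depends on the scaling. With library totals alone, which moves the median of all tested genes by 0.23, the split was 20 higher and 2 lower, and 73.6% of all calls were higher in place of 49.8%. On the authors' FPKM with limma, where that median moves by 0.11 or 0.17 with a pseudocount of 1 or 0.1, the split was 18 higher and 2 lower. Over the whole table, 68.5% and 68.6% of all calls were higher in these fits.

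**Figure D1:**
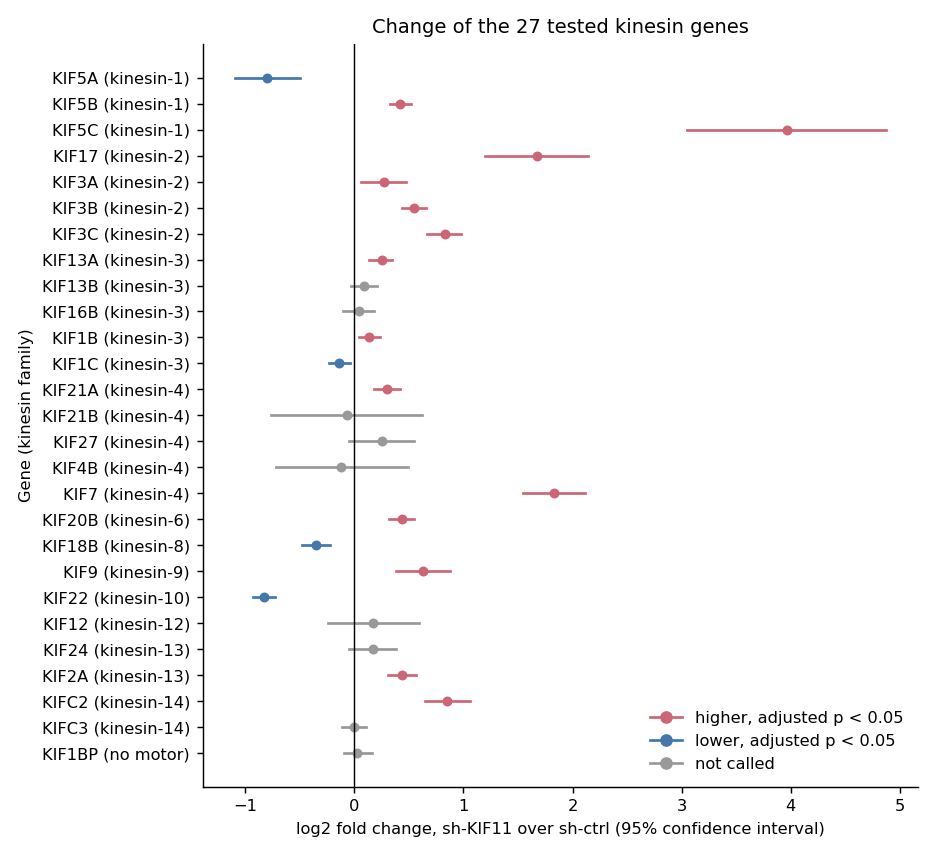
The log2 fold change of sh-KIF11 over sh-ctrl (x axis) is drawn for the 27 tested kinesin genes (y axis, grouped by family) as a point with its 95% confidence interval, in red where higher, blue where lower and grey where not called by edgeR. 24 points lie between -0.83 and 0.85, and KIF17, KIF7 and KIF5C stand to the right at 1.67, 1.83 and 3.96.

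FPKM, which is scaled to transcript length, allows levels to be compared between genes. KIF5B was the most abundant of the 34 in sh-ctrl at 46.7 ± 2.05 FPKM (SD, n = 3), followed by KIF22 at 39.3 ± 1.23 and KIF1C at 38.6 ± 1.55, which overlapped each other. KIF1B (14.8 ± 0.698), KIF3B (14 ± 0.183) and KIF1BP (13.9 ± 0.488) formed the next step and also overlapped. 17 genes reached a mean of 1 FPKM in sh-ctrl and 17 stayed under it. The summed FPKM of all 34 was 228, 234 and 226 in sh-ctrl against 272, 279 and 275 in sh-KIF11, while the median FPKM ratio over all tested genes was 1.13. KIF5B alone made up 20.3% ± 0.912 of that sum in sh-ctrl and 25.2% ± 0.265 in sh-KIF11, so the leading motor gene held a larger part of the sum in every sh-KIF11 library.

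**Figure D2:**
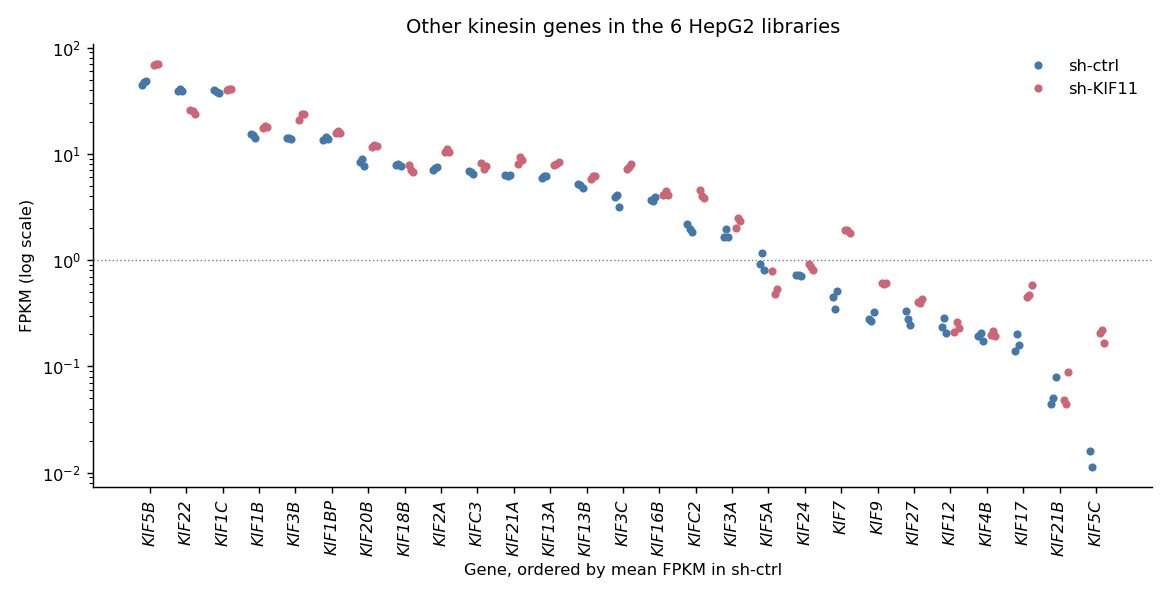
FPKM (log axis) of the 27 tested kinesin genes in the 3 sh-ctrl (blue) and 3 sh-KIF11 (red) libraries, ordered by the sh-ctrl mean, with a dotted line at 1 FPKM. The first sh-ctrl library of KIF5C is listed at 0 FPKM and cannot be drawn; the colours separate most clearly for KIF22 (blue above red) and for KIF7, KIF17 and KIF5C (red above blue).

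The promoters of the 3 genes that changed at least 2-fold and of the most abundant gene are shown because these genes carry the largest changes and the largest level. Each sequence is the 250 bases before the RefSeq start of transcription on GRCh38.p14, written 5′ to 3′ on the gene's strand. Capitals mark a CCAAT box (its letters read ATTGG when it lies on the opposite strand) or the cell cycle homology region, whose letters are TTTGAA. The core site of the E2F factors with the letters GGCGGGA, was also searched.
KIF5C, chr2:148874977-148875226, plus strand: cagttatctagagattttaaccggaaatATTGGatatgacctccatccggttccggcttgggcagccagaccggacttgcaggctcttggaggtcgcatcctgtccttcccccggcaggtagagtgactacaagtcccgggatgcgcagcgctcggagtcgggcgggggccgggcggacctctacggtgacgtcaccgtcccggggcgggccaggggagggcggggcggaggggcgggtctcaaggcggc
KIF7, chr15:89655468-89655717, minus strand: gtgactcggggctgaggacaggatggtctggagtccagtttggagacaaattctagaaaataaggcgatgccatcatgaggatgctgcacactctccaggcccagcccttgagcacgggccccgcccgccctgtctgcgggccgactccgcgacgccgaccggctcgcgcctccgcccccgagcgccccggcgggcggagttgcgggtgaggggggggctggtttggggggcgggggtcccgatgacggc
KIF17, chr1:20718008-20718257, minus strand: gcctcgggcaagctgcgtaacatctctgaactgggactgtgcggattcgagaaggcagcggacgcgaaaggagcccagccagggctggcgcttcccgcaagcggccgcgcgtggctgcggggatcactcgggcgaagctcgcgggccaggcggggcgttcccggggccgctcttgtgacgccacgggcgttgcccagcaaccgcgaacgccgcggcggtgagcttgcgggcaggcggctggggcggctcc
KIF5B, chr10:32056426-32056675, minus strand: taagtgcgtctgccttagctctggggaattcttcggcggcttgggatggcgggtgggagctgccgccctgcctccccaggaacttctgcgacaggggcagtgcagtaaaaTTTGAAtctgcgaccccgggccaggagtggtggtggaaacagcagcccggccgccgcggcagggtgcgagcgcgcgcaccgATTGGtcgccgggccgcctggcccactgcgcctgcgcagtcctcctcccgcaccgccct
All are rich in G and C (66% for KIF5C, 69.6% for KIF7, 72.8% for KIF17 and 68.8% for KIF5B, against a median of 58% over 35116 promoters). KIF5C has a CCAAT box that begins 222 bases before the start, and KIF5B has a CCAAT box at 59 and a cell cycle homology region at 140 bases before the start. None of the 3 motifs was found in these windows of KIF7 and KIF17. Over both strands, 32% of all promoters hold a CCAAT box, 13.3% a cell cycle homology region and 13.5% an E2F core. The 26 kinesin genes found in the promoter table have 35 starts, of which 14 (40%) hold a CCAAT box, 1 (2.86%, KIF5B) a cell cycle homology region and 6 (17.1%) an E2F core. These matches describe letters and not sites of binding.

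Among the kinesin-1 heavy chains, which pair with light chains to carry cargo to the plus end, KIF5B and KIF5C were higher and KIF5A was lower in sh-KIF11. KIF5B, the heavy chain of most tissues (minus strand, chr10:32009010-32056431, GRCh38), had 318, 339 and 350 CPM in sh-ctrl and 452, 450 and 451 CPM in sh-KIF11. Every sh-KIF11 library lay above every sh-ctrl library, with a log2 fold change of 0.42 (SE 0.0483, adjusted p = 3.25e-10). KIF5C, known mainly as a neuronal heavy chain (plus strand, chr2:148875250-149026759), had 1, 4 and 2 raw counts in sh-ctrl against 41, 53 and 37 in sh-KIF11. It went from near the limit of detection to clear counts in all 3 sh-KIF11 libraries, and the ratio of the summed counts, scaled to depth, was 16.3 (95% exact binomial interval 7.7 to 41.4, counting error only). AC105402.3 is annotated as antisense to it. In FPKM it remained low, at 0.205, 0.22 and 0.166 in sh-KIF11. The fitted log2 fold change of KIF5C, given as a description because the gene entered the test only through its high group, was 3.96 (SE 0.451). It ran from 3.61 without the first sh-ctrl library to 4.55 without the second in fits that each omitted 1 library. KIF5A, the other mainly neuronal heavy chain, had 9.48, 11.6 and 8.12 CPM in sh-ctrl and 7.08, 4.88 and 4.92 CPM in sh-KIF11. The groups did not overlap, although the gap between the nearest libraries was small, and the log2 fold change was -0.80 (SE 0.147, adjusted p = 8.34e-06). In FPKM, KIF5B exceeded KIF5A by 41.1 to 59.5 times in sh-ctrl and by 86.7 to 144 times in sh-KIF11.

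**Figure D3:**
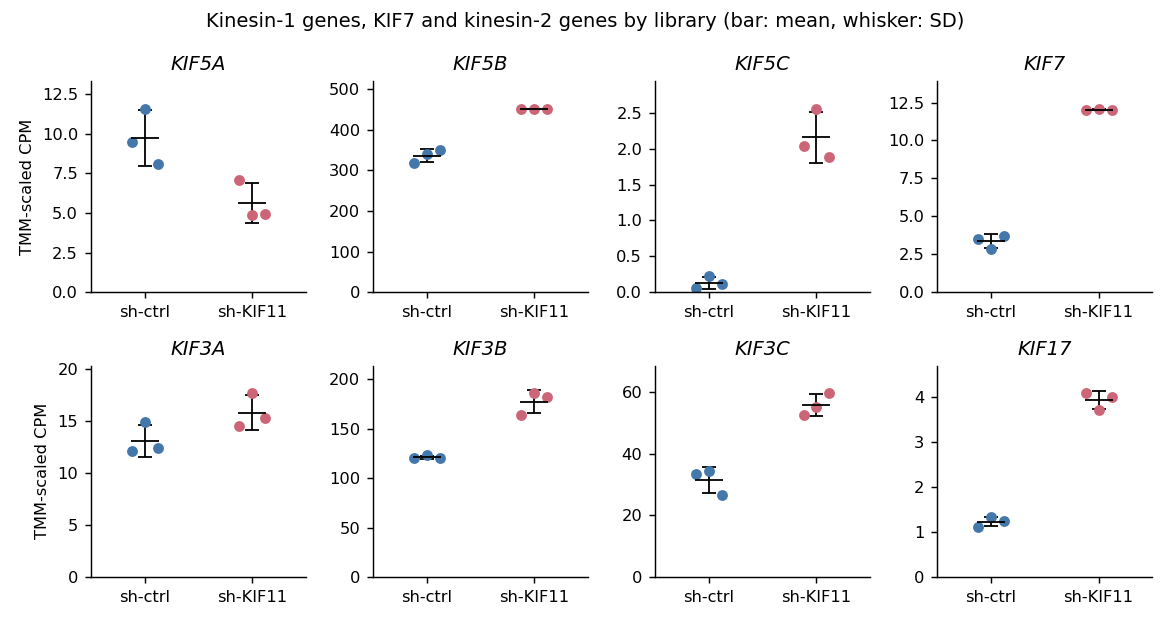
TMM-scaled CPM (y axes, each from 0 and on its own scale) of the kinesin-1 genes KIF5A, KIF5B and KIF5C, of KIF7 and of the kinesin-2 genes KIF3A, KIF3B, KIF3C and KIF17 in each library, with the mean and SD of each group. KIF3A is the gene whose groups overlap, KIF5A falls, and the others rise without overlap.

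All 4 kinesin-2 genes were higher in sh-KIF11. KIF3B, which forms with KIF3A and the accessory protein KIFAP3 the motor that moves material toward the tip of the cilium, had 120, 123 and 120 CPM in sh-ctrl and 164, 186 and 182 CPM in sh-KIF11. The groups stood well apart, with a log2 fold change of 0.55 (SE 0.0526, adjusted p = 3.14e-12). KIF3C, an alternative partner of KIF3A, had 33.4, 34.5 and 26.5 CPM in sh-ctrl and 52.8, 55.2 and 59.7 CPM in sh-KIF11. The third sh-ctrl library was the lowest, and the log2 fold change was 0.83 (SE 0.0782, adjusted p = 2.35e-12), and stayed between 0.72 and 0.90 in fits that each omitted 1 library. KIF3A itself had 12.1, 14.9 and 12.4 CPM in sh-ctrl and 14.5, 17.7 and 15.3 CPM in sh-KIF11. Here the second sh-ctrl library lay above the first sh-KIF11 library, and the call at a log2 fold change of 0.27 (SE 0.103, adjusted p = 0.0209) was lost with DESeq2 (adjusted p = 0.053). It was also lost without the first sh-ctrl library (adjusted p = 0.094), the third sh-ctrl library (0.069) or the second sh-KIF11 library (0.183). KIF17, a kinesin-2 motor that works as a homodimer (minus strand, chr1:20664014-20718017), had 20, 24 and 21 raw counts in sh-ctrl against 82, 77 and 79 in sh-KIF11. All sh-KIF11 libraries were above all sh-ctrl libraries, with a log2 fold change of 1.67 (SE 0.235, adjusted p = 4.28e-08). In FPKM, KIF3B exceeded KIF3A by 7.2 to 8.49 times in sh-ctrl and by 9.46 to 10.4 times in sh-KIF11, and KIF3C exceeded KIF3A by 1.96 to 2.37 times and by 2.98 to 3.54 times. The family's summed FPKM was 19.6 ± 0.824 in sh-ctrl and 33.1 ± 2.16 in sh-KIF11.

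Of the 5 kinesin-4 genes, KIF7 and KIF21A were higher and KIF21B, KIF27 and KIF4B were not called. KIF7, which organises the tip of the cilium and regulates the GLI factors of the Hedgehog pathway (minus strand, chr15:89608789-89655451), had 63, 52 and 63 raw counts in sh-ctrl against 240, 250 and 237 in sh-KIF11. Both groups were tight and far apart, with a log2 fold change of 1.83 (SE 0.139, adjusted p = 3.31e-15) and FPKM of 0.437 ± 0.0816 against 1.87 ± 0.0618. TICRR, a coding gene annotated on the opposite strand and overlapping KIF7, moved the other way, with a log2 fold change of -0.53 (adjusted p = 6.43e-08). The strand setting of the counting is not given in the sources used here. KIF27, the paralogue of KIF7, had 5.66, 5.71 and 4.56 CPM in sh-ctrl and 5.98, 6.57 and 6.44 CPM in sh-KIF11. Its groups did not overlap but the log2 fold change of 0.25 (95% confidence interval -0.05 to 0.55) did not pass the test. KIF21A, which restrains microtubule growth, had 65.8, 67.4 and 67 CPM in sh-ctrl and 76.1, 87.3 and 82.7 CPM in sh-KIF11 (log2 fold change 0.30, SE 0.0583, adjusted p = 2e-05). Its paralogue KIF21B was at 16 to 21 raw counts in sh-ctrl against 16 to 26 in sh-KIF11, with a depth-scaled ratio of 0.953 (95% exact binomial interval 0.648 to 1.4), and a difference smaller than that interval was not detectable at this depth. KIF4B, an intronless copy of the left-out chromokinesin KIF4A, had 20 to 25 raw counts in sh-ctrl against 23 to 27 in sh-KIF11. Its coding sequence is 95.74% identical to that of KIF4A, and 2 of its 3556 stretches of 150 bases, the read length, occur unchanged in KIF4A transcripts. How reads of the copies were assigned was not tested.

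Because KIF7 acts in Hedgehog signalling, the genes of that pathway were counted. Of 18 listed genes 10 were tested, 3 were higher and 3 lower (60% called against the 69.1% of all tested genes), and the median log2 fold change was -0.05. The GLI factors GLI1, GLI2 and GLI3, and also HHIP, were among the listed genes with too few counts to test. The receptor PTCH1 (-0.45, adjusted p = 0.003), the transducer SMO (-0.42, adjusted p = 3.79e-06) and the GLI inhibitor SUFU (-0.27, adjusted p = 0.00218) were lower. STK36, a kinase that binds KIF27 and is needed for motile cilia (1.09, adjusted p = 2.28e-15), and the transporter-like proteins DISP1 (0.54, adjusted p = 0.00771) and DISP2 (1.01, adjusted p = 0.0392) were higher. Scaling to library totals alone took the calls of PTCH1 (-0.22, adjusted p = 0.137) and SUFU (-0.04, adjusted p = 0.632) away. On log2(FPKM + 1) and log2(FPKM + 0.1), PTCH1 (adjusted p = 0.0774 and 0.0895), SUFU (0.317 and 0.329) and DISP2 (0.133 and 0.0671) were not called either. DISP2 had 2 to 11 raw counts in sh-ctrl against 14 to 25 in sh-KIF11. Its sh-ctrl libraries alone did not meet the count filter, so it entered the test with the help of its high group. Its place among the 3 higher genes therefore carries little weight. The call of DISP2 was lost without the second sh-ctrl library (0.55, adjusted p = 0.277), without the third sh-KIF11 library (0.73, adjusted p = 0.214) and with DESeq2 (adjusted p = 0.0994). PTCH1 was no longer called without the first sh-ctrl library (-0.32, adjusted p = 0.0512), nor DISP1 without the second sh-KIF11 library (0.41, adjusted p = 0.0826).

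The 5 tested kinesin-3 genes, carriers of vesicles and endosomes, had log2 fold changes between -0.14 and 0.25. KIF13A, a motor of recycling endosomes, had 88, 93.3 and 91.3 CPM in sh-ctrl and 106, 109 and 108 CPM in sh-KIF11, with a log2 fold change of 0.25 (SE 0.0522, adjusted p = 6.42e-05). KIF1B, which carries mitochondria and synaptic vesicle precursors, had 298, 290 and 277 CPM in sh-ctrl and 315, 325 and 314 CPM in sh-KIF11. This 1.1-fold rise (log2 fold change 0.14, SE 0.0482, adjusted p = 0.00872) was not called without the second sh-KIF11 library (adjusted p = 0.0633). KIF1C, a motor linked to Golgi and vesicle transport, had 468, 451 and 432 CPM in sh-ctrl and 410, 409 and 410 CPM in sh-KIF11 (log2 fold change -0.14, SE 0.0476, adjusted p = 0.0112). Its direction is not settled by these data. The value was 0.10 with library totals alone and 0.06 on the FPKM scale, neither of them called, and the call was lost with upper-quartile factors (-0.06) and without the first sh-ctrl library (-0.10, adjusted p = 0.079). KIF13B and the early endosome motor KIF16B were not called at 0.09 (95% confidence interval -0.03 to 0.21) and 0.04 (-0.10 to 0.18).

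The motors of cell division among these genes went in different directions. KIF22, a chromokinesin that pushes chromosome arms from the spindle poles, had 191, 201 and 189 CPM in sh-ctrl and 112, 109 and 105 CPM in sh-KIF11. It fell by 0.83 on the log2 scale (SE 0.0507, adjusted p = 3.25e-18), the largest fall among the 27 and the smallest adjusted p. KIF18B, which shortens the plus ends of astral microtubules in mitosis, had 71.8, 73.3 and 70.3 CPM in sh-ctrl and 62.2, 54.4 and 52.1 CPM in sh-KIF11. It was lower without overlap (log2 fold change -0.35, SE 0.0633, adjusted p = 5.04e-06), but was not called with library totals alone (-0.12, adjusted p = 0.0789) or on FPKM. KIF20B, a kinesin-6 motor of late cytokinesis, rose from 69.2, 76.5 and 66.2 CPM in sh-ctrl to 94.1, 97.9 and 95 CPM in sh-KIF11 (log2 fold change 0.44, SE 0.0573, adjusted p = 9.2e-09). KIF2A, a kinesin-13 microtubule depolymerase of spindle poles and neurites, had 40.1, 40.3 and 42.2 CPM in sh-ctrl and 55.5, 57.2 and 53.6 CPM in sh-KIF11. The groups were well separated (log2 fold change 0.44, SE 0.0662, adjusted p = 1.93e-07), and the opposite-strand neighbour DIMT1, which overlaps it, was at -0.21. IPO11, which overlaps KIF2A on the same strand, was not called at -0.11 (adjusted p = 0.193). KIF24, a depolymerase of the centriole, was at 11.1, 10.6 and 10.2 CPM in sh-ctrl and 12.3, 11.9 and 11.6 CPM in sh-KIF11, and its log2 fold change of 0.17 (95% confidence interval -0.05 to 0.38) did not pass the test. UBAP1, which overlaps KIF24 on the opposite strand, was not called at -0.01 (adjusted p = 0.928).

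The 9 mitotic kinesins left out by the name rule are the set most like these genes. Of those 9, 77.8% were called against 69.1% of all tested genes. Of them 2 were higher (KIF18A at 0.45 and KIF14 at 0.31) and 5, the shRNA target among them, were lower, with KIF20A at -0.91, KIF2C at -0.75 and the targeted KIF11 at -0.75 the lowest. Their median log2 fold change was -0.57 beside 0.25 for the kinesin genes described here, and the difference between the sets was not tested. KIF22 at -0.83 thus had a value in the range of the lowest of that set.

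Of the kinesin-14 motors, which move to the minus end, KIFC2 was higher and KIFC3 was not called. KIFC2 had 13.1, 11.7 and 10.5 CPM in sh-ctrl and 24.1, 21 and 18.9 CPM in sh-KIF11, a wide spread within both groups but no overlap (log2 fold change 0.85, SE 0.101, adjusted p = 7.75e-10). FOXH1, which overlaps KIFC2 on the opposite strand, was at 0.149 and 0.215 CPM, far under KIFC2. KIFC3, a motor of cell junctions and Golgi, had 89.3, 89.9 and 85.1 CPM in sh-ctrl and 93.3, 83.7 and 87.5 CPM in sh-KIF11, with a log2 fold change of 0.00 (95% confidence interval -0.11 to 0.11). KIF9, a kinesin-9 motor of motile cilia, rose from 6.84, 6.21 and 6.28 CPM to 10.2, 9.61 and 10.2 CPM (log2 fold change 0.63, SE 0.124, adjusted p = 2.18e-05). Its FPKM ratio was larger, at 1.05 on the log2 scale, and KLHL18, which overlaps it on the opposite strand, was also higher at 0.36 (adjusted p = 0.000141). The antisense gene KIF9-AS1 overlaps KIF9 as well. KIF12, the kinesin-12 gene of this group, was at 49 to 53 raw counts in sh-ctrl against 61 to 72 in sh-KIF11 and was not called (log2 fold change 0.17, 95% confidence interval -0.24 to 0.59). KIF1BP, the kinesin-binding protein, was at 52.2, 54.4 and 53.5 CPM in sh-ctrl and 53.9, 55.7 and 54.2 CPM in sh-KIF11 (log2 fold change 0.03, 95% confidence interval -0.09 to 0.16).

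7 genes had too few counts to test. KIF19, KIF25, KIF26A and KIF2B had 0 counts in all 6 libraries, which allows a level of up to 0.178 CPM in the library with the smallest scaled depth. The neuronal kinesin-3 motor KIF1A had 1, 2 and 0 counts in sh-ctrl against 4, 2 and 2 in sh-KIF11, a depth-scaled ratio of 2.33 (95% exact binomial interval 0.558 to 13.6). KIF6, a kinesin-9 motor of ependymal cilia, had 1, 2 and 6 counts in sh-ctrl against 11, 5 and 4 in sh-KIF11, a ratio of 1.94 (0.844 to 4.83). KIF26B, a kinesin-11 protein, had 1, 3 and 0 counts in sh-ctrl against 7, 4 and 6 in sh-KIF11, a ratio of 3.71 (1.21 to 15.1), and was not called when the count filter was dropped (adjusted p = 0.0908).

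The genes that changed at least 2-fold were 3 of 27 (11.1%) against 11.7% of all tested genes, and all were low in sh-ctrl. Without KIF5C, which entered the test through its high group, the count was 2 of 26. Of the 10 tested kinesin genes under 1 FPKM in sh-ctrl, 3 changed at least 2-fold (KIF5C, KIF7 and KIF17), beside 37.6% of the 2398 tested genes at such levels, and without KIF5C it was 2 of 9. Of the 17 at or over 1 FPKM, none did, beside 5.41% of 9971 genes. Of these 17 genes, 13 were called, with log2 fold changes from -0.83 to 0.85, beside 69.1% of tested genes at all levels. The called share of all tested genes at or over 1 FPKM was not counted. With library totals alone KIF3C and KIFC2 also passed the 2-fold limit, and the share of all tested genes past it under that scaling was not counted.

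**Figure D4:**
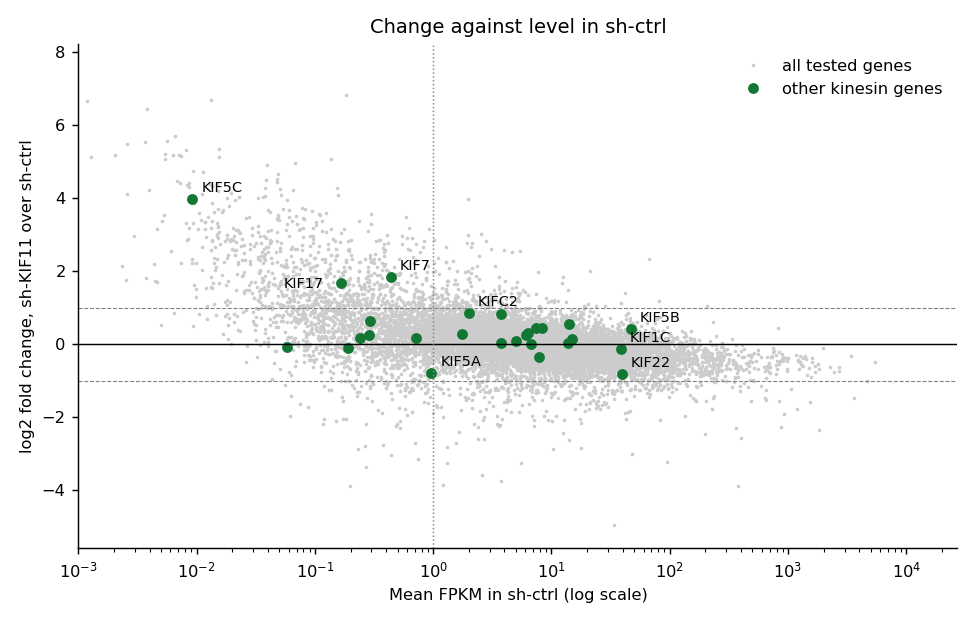
The log2 fold change (y axis, dashed lines at 2-fold) is plotted against the mean FPKM in sh-ctrl (x axis, log scale, dotted line at 1 FPKM) for all tested genes (grey) and the 27 kinesin genes (green). The axis begins at 0.001 FPKM, under which 13 tested genes are not drawn. The 3 kinesin genes past 2-fold lie left of the dotted line, where the grey cloud is also wide.

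By family, summed FPKM was 47.6 ± 2.1 in sh-ctrl and 70 ± 0.431 in sh-KIF11 for kinesin-1, 68.2 ± 2.23 and 76.6 ± 0.931 for kinesin-3, and 7.24 ± 0.11 and 11.2 ± 0.609 for kinesin-4. KIF22, the sole kinesin-10 gene, went the other way at 39.3 ± 1.23 and 25.1 ± 1.05. Kinesin-3, the largest sum in sh-ctrl, had a ratio of 1.12, close to the 1.13 of the median gene on this scale.

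**Figure D5:**
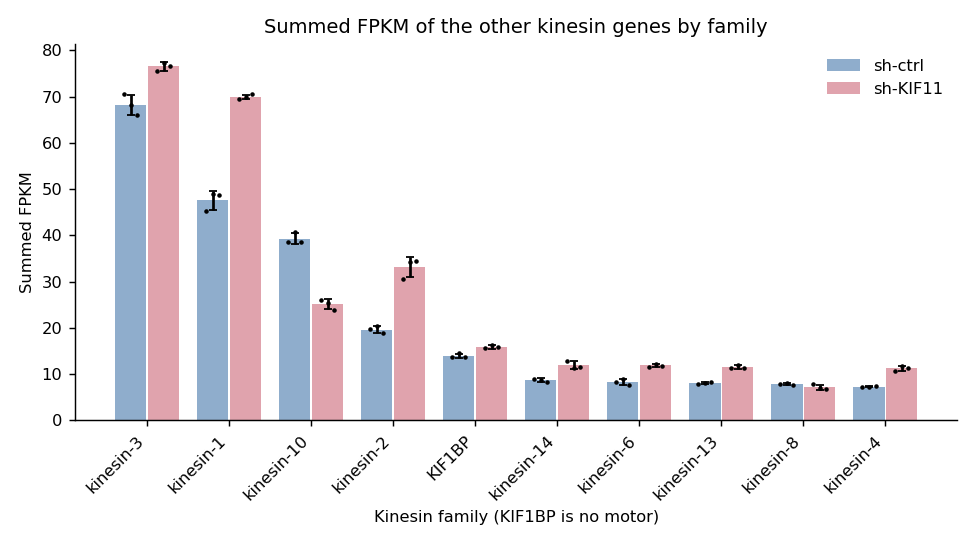
Bars give the mean summed FPKM (y axis from 0) of each kinesin family with a sum of at least 1 FPKM in sh-ctrl, whiskers the SD and black points the 3 libraries of sh-ctrl (blue) and sh-KIF11 (red). KIF1BP is drawn apart because it is no motor. The sums are 47.6 and 70 for kinesin-1, 19.6 and 33.1 for kinesin-2, and 39.3 and 25.1 for kinesin-10.

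The proteins that link these motors to cargo were counted from a list of 38 names of light chains and adaptors, of which 32 were tested. Of these, 15 were higher and 6 lower (65.6% called against the 69.1% of all tested genes), with a median log2 fold change of 0.11. The largest rises were MAPK8IP2, a scaffold between kinesin-1 and stress kinases (1.71, adjusted p = 5.32e-15), the lysosomal adaptor PLEKHM1 (0.78, adjusted p = 2.65e-13) and TRAK1, which ties kinesin-1 to mitochondria (0.74, adjusted p = 7.05e-16). PPFIA4 (-1.98), the kinesin light chain KLC4 (-0.43, adjusted p = 2.48e-06) and the cargo receptor CLSTN1 (-0.37, adjusted p = 2.42e-08) were the lowest. PPFIA4 rested on 12 to 23 raw counts in sh-ctrl against 2 to 8 in sh-KIF11, and was not called on FPKM. PPFIA4 entered the test only through sh-ctrl, where it was high. Its value is thus a description, and its place among the 6 lower genes carries no weight. Chosen after their values were seen, because they are the direct subunits of motors described above, KIFAP3 of the kinesin-2 motor was at 0.66 (adjusted p = 1.06e-07), KLC1 at 0.35 (adjusted p = 5.51e-07) and KLC2 at 0.20 (adjusted p = 0.00438). The other light chains were not higher, with KLC4 lower at -0.43 and KLC3 not called at -0.11 (adjusted p = 0.771).

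Dynein, the motor that runs opposite to most kinesins, and its activator dynactin were represented by 28 genes, of which 26 were tested. 9 were higher and 7 lower (61.5% called against 69.1% of all tested genes), with a median log2 fold change of 0.10. The light chain gene DYNLT3 (0.98, adjusted p = 3.14e-11), the light intermediate chain gene DYNC1LI2 (0.73, adjusted p = 9.53e-16) and DCTN6 (0.46, adjusted p = 5.41e-06) were the highest. NDEL1, a dynein regulator (-0.52, adjusted p = 1.4e-08), DYNLL2 (-0.45, adjusted p = 1.07e-08) and DCTN3 (-0.40, adjusted p = 0.000117) were the lowest, and DCTN3 was not called with library totals alone (-0.17, adjusted p = 0.0851), on log2(FPKM + 1) (-0.16, adjusted p = 0.144) or on log2(FPKM + 0.1) (-0.18, adjusted p = 0.139).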

How the data were processed

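mRNA libraries of HepG2 cells (sh-ctrl and sh-KIF11, 3 each) were grouped by their GEO titles and treatment labels. The columns headed shRNA were taken as sh-KIF11, since the labels name no other knockdown. The count table deposited by the authors holds unscaled reads per gene, and a second table holds FPKM, which the authors had scaled to transcript length and depth. The submitters' processing notes name bcl2fastq 1.8.4, Trimmomatic, HISAT2 2.1.0, Cufflinks 2.2.1, HTSeq 0.9.1 and DESeq with GRCh38 (hg38), without roles, and the counting strand is not given in the sources used here.

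Counts were tested with edgeR 4.0.16 in R 4.3.3 (quasi-likelihood fit on group, TMM factors, filterByExpr, 12369 of 20030 genes kept, Benjamini-Hochberg over all of them, threshold 0.05, two-sided). The biological coefficient of variation was 4.87%. A second call rule added a 2-fold limit. CPM values are TMM-scaled. Ratios of summed counts carry 95% exact binomial intervals, which cover counting error only. Families and lists are described by counts and medians, with no test over them. Alternatives were RLE and upper-quartile factors, library totals alone, no filter, a minimum of 10 counts per library, DESeq2 1.42.0, limma 3.58.1 on log2(FPKM + 1) and log2(FPKM + 0.1), which understates changes of low genes, the replicate number as a block, and each library left out in turn. The fits were tested on simulated data. A chi-square test over genes separated every pair of libraries beyond counting error (2.67 to 8.11 for each degree of freedom inside a group).

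Positions come from GENCODE release 29 (GRCh38), matched by symbol, and promoters from RefSeq (GRCh38.p14), matched by gene ID for 26 of the 34 genes. The shRNA target was read from the study's oligo list. Every one of the 34 genes was to be named, with the 3 highest and 3 lowest called genes of each partner list, and sequences were to be shown for genes past 2-fold and for the most abundant gene. The members and lists were chosen with earlier results of these data known.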

Additional observations from a re-analysis of the deposited data

How the results depend on the processing

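Under 15 alternatives, 358 of 404 values of the 27 tested kinesin genes kept their direction and their side of the threshold, 10 lost the call, 17 gained it and 19 changed sign. Of the 18 called genes, 14 kept both under all 15 (KIF5C under 14, since it drops out where 10 counts are required in every library), and KIF1B, KIF1C, KIF3A and KIF18B did not. KIF5C entered the test only through its high group, so its place among the kept calls carries no weight. KIF1C changed sign with library totals alone (0.10) and on log2(FPKM + 1) and log2(FPKM + 0.1) (both 0.06). The other changes of sign were of genes never called there. KIF12 was at -0.01 and -0.03 on both FPKM scales, KIF4B at 0.11 with library totals alone and 0.01 and 0.05 on FPKM, and KIF21B at 0.16 with library totals alone, 0.01 with upper-quartile factors, 0.00 and 0.01 on FPKM, and -0.34 to 0.08 with a library left out. KIFC3, at 0.00 in the report, was at -0.01 without the count filter, -0.00 with the replicate block and -0.04 to 0.04 with a library left out. With library totals alone KIFC3 was called higher (0.23, adjusted p = 0.000273), as it was on both FPKM scales (0.18 and 0.20). KIF13B, KIF16B, KIF1BP, KIF24 and KIF27 also gained a call as higher with library totals alone. KIF13B, KIF24 and KIF27 gained it with upper-quartile factors, and KIF13B, KIF1BP and KIF27 on both FPKM scales. Library totals alone gave 6621 higher and 2373 lower genes over the whole table, against 4254 and 4294, and 2 lower kinesin genes in place of 4, with 5 past 2-fold in place of 3. On log2(FPKM + 1) and log2(FPKM + 0.1), 2596 and 2597 genes were lower over the whole table, 2 kinesin genes were lower under each, and 1 and 5 were past 2-fold. The share of all tested genes past 2-fold was not counted under these settings. The cause of these shifts was not tested. The median over the kinesin genes lay above that of all tested genes by 0.13 to 0.26 in all 16 fits, which share the same libraries. Scaling factors move all genes alike, so fits that differ only in them cannot change this difference (0.24 with TMM, RLE or upper-quartile factors and with library totals alone). Leaving out a library gave 16 to 18 called kinesin genes, beside 7975 to 8749 called genes over the whole table. Libraries with the same number did not deviate together (correlations from -0.0185 to 0.03), so the replicate block stands for no known pairing. With the replicate block 8607 genes in all and the same number of kinesin genes, 18, were called.

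Depth limits the low genes most, since KIF1A, KIF6, KIF26B, KIF21B, KIF4B and, in sh-ctrl, KIF5C and KIF17 rest on at most 27 counts in a library, and changes smaller than their counting intervals were not detectable.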
